A study of Mus musculus with 12 samples.

Results

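The genes described here are 35 genes of endothelial identity and activation, taken by symbol from the 29956 named genes of a day 3 wound count table. They comprise 17 genes of endothelial identity and barrier, 5 transcription factors, 5 tip cell and angiogenic genes, 6 adhesion and activation genes and 2 lymphatic genes; VEGF receptors were left out by the rule. All 35 were found under their current symbols and all 35 passed the filter on low counts. Total RNA, depleted of ribosomal RNA, was sequenced from wounded back skin of B6.BKS(D)-Leprdb/db mice, which lack a working leptin receptor and become obese and diabetic. The day 3 libraries were 4 from wounds given the bacterium Alcaligenes faecalis, 4 from wounds given Staphylococcus aureus and 4 from wounds given vehicle, which was PBS containing 10% glycerol. All 3 groups shared the genotype and the wound, and no unwounded or nondiabetic group is analysed here, so every difference below is between wounds of diabetic skin. The labels do not say whether each library came from its own mouse, so p-values measure the spread between these libraries.

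Endothelial cells line blood and lymphatic vessels and hold together through VE-cadherin, claudin-5 and related junction proteins. In inflamed tissue the venules put selectins and immunoglobulin-family adhesion molecules on their surface, which slow, arrest and pass leukocytes from the blood into the tissue. During repair, sprouts led by tip cells grow into the wound bed, guided in part by Delta-Notch and apelin signalling. In mice without working leptin signalling, wound vascularisation is known to be slow.

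Libraries held 38.4 to 71.3 M estimated counts, and each member had at least 169 in every library. None of the 10 blood endothelial markers was at 0 in any group, so the labelled skin tissue contained the cells these genes mark. Levels are CPM, counts relative to the scaled library size. In bulk tissue a larger share of endothelial cells and more RNA per endothelial cell cannot be told apart. Vehicle replicate 3 stood apart on the first principal component (-72.6, against -29 to -10 in the A. faecalis libraries, 23.3 to 60 in the S. aureus libraries and -25.9 to 2.34 in the other vehicle libraries). Its 5 adipocyte markers summed to 5740 CPM, against 1420 to 2250 CPM in A. faecalis libraries, 999 to 1580 CPM in S. aureus libraries and 1420 to 1840 CPM in the other vehicle libraries. Counts of called genes are therefore given also without it.

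The first question was how each bacterium changed these genes relative to vehicle. Of the 35 genes, 10 rose with S. aureus and none fell (edgeR's quasi-likelihood test, Benjamini-Hochberg adjusted p under 0.05 over 18218 genes). Over all genes tested, 6.84% were called in this comparison, 3.87% as higher and 2.97% as lower. The rises were in Selp, Sele and Vcam1 of the adhesion genes, in Emcn, Ecscr, Plvap, Eng, Rasip1 and Pecam1 of the identity genes and in the apelin receptor gene Aplnr. The median log2 fold change of the 35 was 0.40, against -0.04 over all genes tested. The groups did not overlap in 16 members that were higher with S. aureus and in 2 that were lower, while 15.1% of all genes did not overlap, 7.56% higher and 7.57% lower. At an unadjusted p under 0.05 there were 17 higher and 3 lower, against 27% of all genes, 12.3% higher and 14.8% lower, and 29 of the 35 had a log2 fold change above 0, as did 45.3% of all genes. The count of called members was 9 without vehicle replicate 3, but 3 without S. aureus replicate 3 or 4, 4 without S. aureus replicate 2, and 6 without vehicle replicate 1 or 4. Over all genes tested, 1246 were called with all libraries and 973 without vehicle replicate 3. Without S. aureus replicates 3, 4 and 2 that count was 260, 381 and 451. Without vehicle replicates 1 and 4 it was 672 and 1750.

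**Figure D1:**
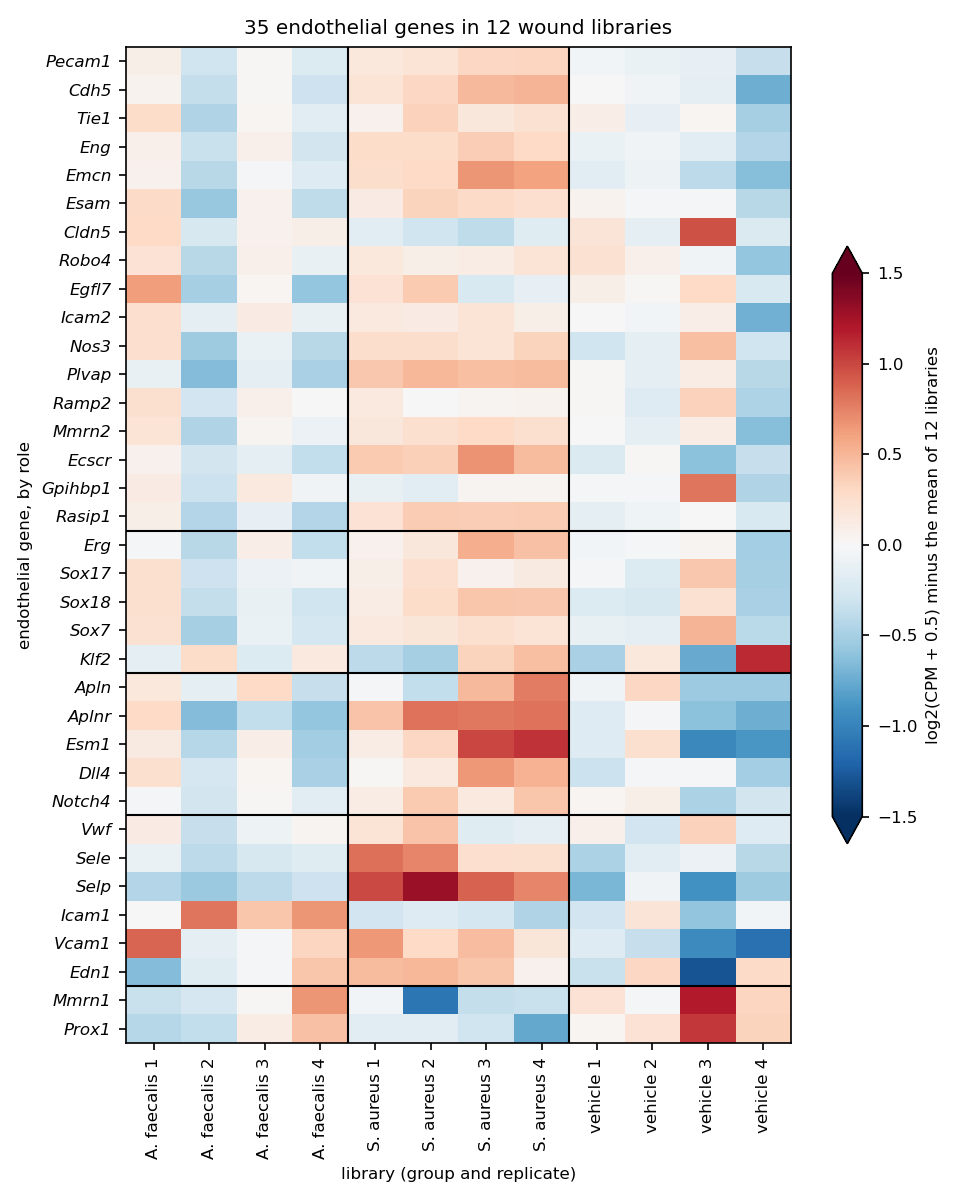
Level of each of the 35 genes (rows, grouped by role) in each of the 12 libraries (columns), as log2(CPM + 0.5) minus the gene's mean over the 12 libraries; red is above and blue below that mean. The 4 S. aureus columns are red for most identity genes and deep for Selp, while Icam1 is reddest in A. faecalis replicates 2 to 4 and the lymphatic genes Mmrn1 and Prox1 are red in vehicle replicate 3.

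Both selectin genes rose with S. aureus. Selp encodes P-selectin, which endothelial cells store in Weibel-Palade bodies and use to capture rolling leukocytes. Its level was 105, 130, 97.5 and 87.9 CPM in the S. aureus libraries, against 32.5, 51.0, 27.9 and 36.3 CPM in the vehicle libraries. Every S. aureus library lay above every vehicle library, with a log2 fold change of 1.51 (SE 0.17, edgeR adjusted p = 0.00332), the smallest adjusted p of the 35 genes. Sele encodes E-selectin, which is made on demand by activated endothelium and is largely restricted to it. Its level was 10.4, 9.73, 6.83 and 6.80 CPM with S. aureus, against 3.92, 5.02, 5.30 and 4.13 CPM with vehicle. Again the groups did not overlap, and the log2 fold change was 0.88 (SE 0.17, edgeR adjusted p = 0.0162). Both calls held in all 12 fits that left out 1 library, with adjusted p of at most 0.0197 for Selp and 0.0482 for Sele. When only the S. aureus and vehicle libraries were fitted, Sele had an adjusted p of 0.0566 by edgeR.

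P-selectin is also carried by platelets. Of 7 platelet and megakaryocyte markers, 1 was called with S. aureus, Pf4 (platelet factor 4), and it fell (log2 fold change -1.04, edgeR adjusted p = 0.0334). Ppbp was at -1.23 without passing the test, and the other 5 were above 0, so that the median of the 7 was 0.07. The 7 markers summed to 232 to 346 CPM in S. aureus libraries and 258 to 1050 CPM in vehicle libraries, and none was at 0. Neutrophil markers also differed: the 7 listed summed to 9360 to 14900 CPM with S. aureus, against 718 to 8810 CPM with vehicle, though edgeR called none of the 7, with 5 at an unadjusted p under 0.05, and none was at 0. The 6 monocyte and macrophage markers summed to 3330 to 4070 CPM with S. aureus, against 3400 to 6040 CPM with vehicle, none at 0; 5 of the 6 had a log2 fold change below 0 and Emr1 fell (-1.07, edgeR adjusted p = 0.0244). The part of these cells in the result was not tested.

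The sequences before the transcription starts of Sele, Selp and Icam1 are shown because these adhesion genes are all known to be induced by inflammatory cytokines but did not move alike here. Each is the 250 bases before the start in RefSeq on build GRCm38.p6, plus strand, read 5′ to 3′; the window is chr1:164047984-164048233 for Sele, chr1:164115014-164115263 for Selp and chr9:21015690-21015939 for Icam1. Capitals mark the 9-base pattern GGNNNTTCC on either strand, a short form of the site bound by NF-kappa-B, chosen after the sequences had been read.
Sele: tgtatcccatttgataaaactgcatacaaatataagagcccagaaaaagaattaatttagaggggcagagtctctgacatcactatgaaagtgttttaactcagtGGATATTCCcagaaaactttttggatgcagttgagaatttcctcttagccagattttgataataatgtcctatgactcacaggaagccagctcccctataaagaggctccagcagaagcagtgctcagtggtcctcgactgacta
Selp: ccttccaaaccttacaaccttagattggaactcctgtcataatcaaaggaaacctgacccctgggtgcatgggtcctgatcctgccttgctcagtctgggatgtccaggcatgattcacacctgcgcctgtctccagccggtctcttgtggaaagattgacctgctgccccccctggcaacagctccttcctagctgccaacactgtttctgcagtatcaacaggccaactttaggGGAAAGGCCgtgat
Icam1: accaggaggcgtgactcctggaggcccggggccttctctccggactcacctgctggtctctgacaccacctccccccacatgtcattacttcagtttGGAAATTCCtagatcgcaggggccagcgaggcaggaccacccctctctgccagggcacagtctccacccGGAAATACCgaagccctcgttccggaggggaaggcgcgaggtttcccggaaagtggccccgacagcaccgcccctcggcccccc

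The pattern began 145 bases before the start of Sele, 14 before Selp, and 153 and 84 before Icam1. It was present in 15.7% of the 32851 promoter windows of that length in the table. Of the members, 19 had a window, 24 windows in all, and the pattern was in 8 of these, from 7 members. The windows of Sele, Selp and Icam1 are among the 8. Since the pattern was chosen after they were read, the count cannot be weighed against the share of all windows. The ETS core AGGAAG, searched on both strands, began 65 bases before the start of Sele and 64 before Selp. It was in 12 of the 24 windows, from 11 members, against 29.5% of all windows. The AP-1 pattern TGANTCA began 73 bases before Sele and 139 before Selp. It was in 2 of the 24 windows, those of Sele and Selp, against 6.75% of all windows. In Sele the AP-1 pattern lay just before the ETS core without overlapping it. The full 10-base kappa-B consensus was in windows of Dll4, Notch4 and Rasip1 and in 7.25% of all windows; in Notch4 it overlapped the short form. A match is a run of letters and says nothing of binding in these wounds.

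The other adhesion and activation genes moved unevenly with S. aureus. Vcam1 encodes the adhesion molecule that binds the integrin of monocytes and lymphocytes. It stood at 66.3, 51.9, 58.1 and 47.8 CPM with S. aureus, against 36.8, 33.1, 21.5 and 19.1 CPM with vehicle, which is 1.02 as a log2 fold change (SE 0.25, edgeR adjusted p = 0.0375). The groups were separate, but leaving out vehicle 3 or 4, A. faecalis 4 or any S. aureus library ended the call (adjusted p up to 0.0994). Icam1 encodes the ligand of the leukocyte beta-2 integrins and is made by leukocytes and keratinocytes as well as endothelium. Its level averaged 70.5 ± 5.32 CPM in S. aureus wounds and 77.9 ± 18.1 CPM in vehicle wounds (mean ± SD, n = 4 each), and the groups overlapped (log2 fold change -0.14, SE 0.18, edgeR adjusted p = 0.657). Vwf, von Willebrand factor, the clotting glycoprotein stored beside P-selectin, averaged 128 ± 26.6 CPM and 120 ± 24.3 CPM in the same groups (0.09, SE 0.17, edgeR adjusted p = 0.771). Edn1, the vasoconstrictor endothelin-1, averaged 20.2 ± 2.71 CPM and 14.1 ± 6.34 CPM (0.51, SE 0.32, edgeR adjusted p = 0.336). So of Selp and Vwf, whose products are stored side by side, Selp was called and Vwf was not. The difference between the genes was not tested.

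Of the 17 identity genes, 6 rose with S. aureus, where 3.87% of all genes were called higher. A log2 fold change above 0 was seen in 15 of the 17, as in 45.3% of all genes. Ecscr, a surface protein of endothelial cells involved in their migration, was at 44.4, 43.1, 53.8 and 46.9 CPM with S. aureus, against 28.8, 34.0, 21.8 and 26.4 CPM with vehicle. Its log2 fold change was 0.76 (SE 0.14, edgeR adjusted p = 0.0127), and it was called in all 12 fits with a library left out. Emcn, the sialomucin endomucin of capillary and venous endothelium, was at 49.3, 50.7, 65.2 and 62.5 CPM, against 36.8, 39.0, 31.2 and 26.1 CPM with vehicle (0.78, SE 0.15, edgeR adjusted p = 0.016). The groups of both genes were separate; the Emcn call was lost without S. aureus replicate 3 or 4 (adjusted p = 0.0586 and 0.0503).

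Plvap encodes the protein of the diaphragms that close fenestrae and caveolae, known to be high in leaky and growing vessels. It was at 395, 421, 408 and 415 CPM with S. aureus, against 303, 273, 322 and 224 CPM with vehicle (log2 fold change 0.55, SE 0.14, edgeR adjusted p = 0.0384). Eng, endoglin, a co-receptor for BMP ligands, was at 265, 266, 283 and 270 CPM, against 205, 211, 195 and 161 CPM with vehicle (0.49, SE 0.11, edgeR adjusted p = 0.0302). The 4 S. aureus libraries lay within a narrow band for both genes and above all vehicle libraries. Rasip1, a Ras-interacting protein needed for vessel lumens, was at 81.4, 91.5, 90.9 and 91.8 CPM, against 63.9, 67.2, 70.2 and 59.7 CPM with vehicle (0.45, SE 0.12, edgeR adjusted p = 0.0415). Pecam1, the general endothelial marker CD31, which platelets and some leukocytes also carry, was at 411, 425, 459 and 462 CPM, against 358, 345, 339 and 290 CPM with vehicle (0.40, SE 0.11, edgeR adjusted p = 0.0438). Groups were again separate, but these 4 calls lay near the threshold. With 1 library left out the log2 fold changes stayed at 0.46 to 0.64 for Plvap, 0.42 to 0.56 for Eng, 0.41 to 0.51 for Rasip1 and 0.34 to 0.46 for Pecam1. Without 1 library the adjusted p reached 0.104 for Plvap, 0.0947 for Eng, 0.121 for Rasip1 and 0.129 for Pecam1, each without S. aureus replicate 3; leaving out S. aureus replicate 2 or 4 or vehicle replicate 1 also ended all 4 calls. The Pecam1, Plvap and Rasip1 calls also ended without vehicle replicate 2 or 4, those of Pecam1 and Rasip1 without A. faecalis replicate 3, and that of Pecam1 without vehicle replicate 3 or A. faecalis replicate 4.

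**Figure D2:**
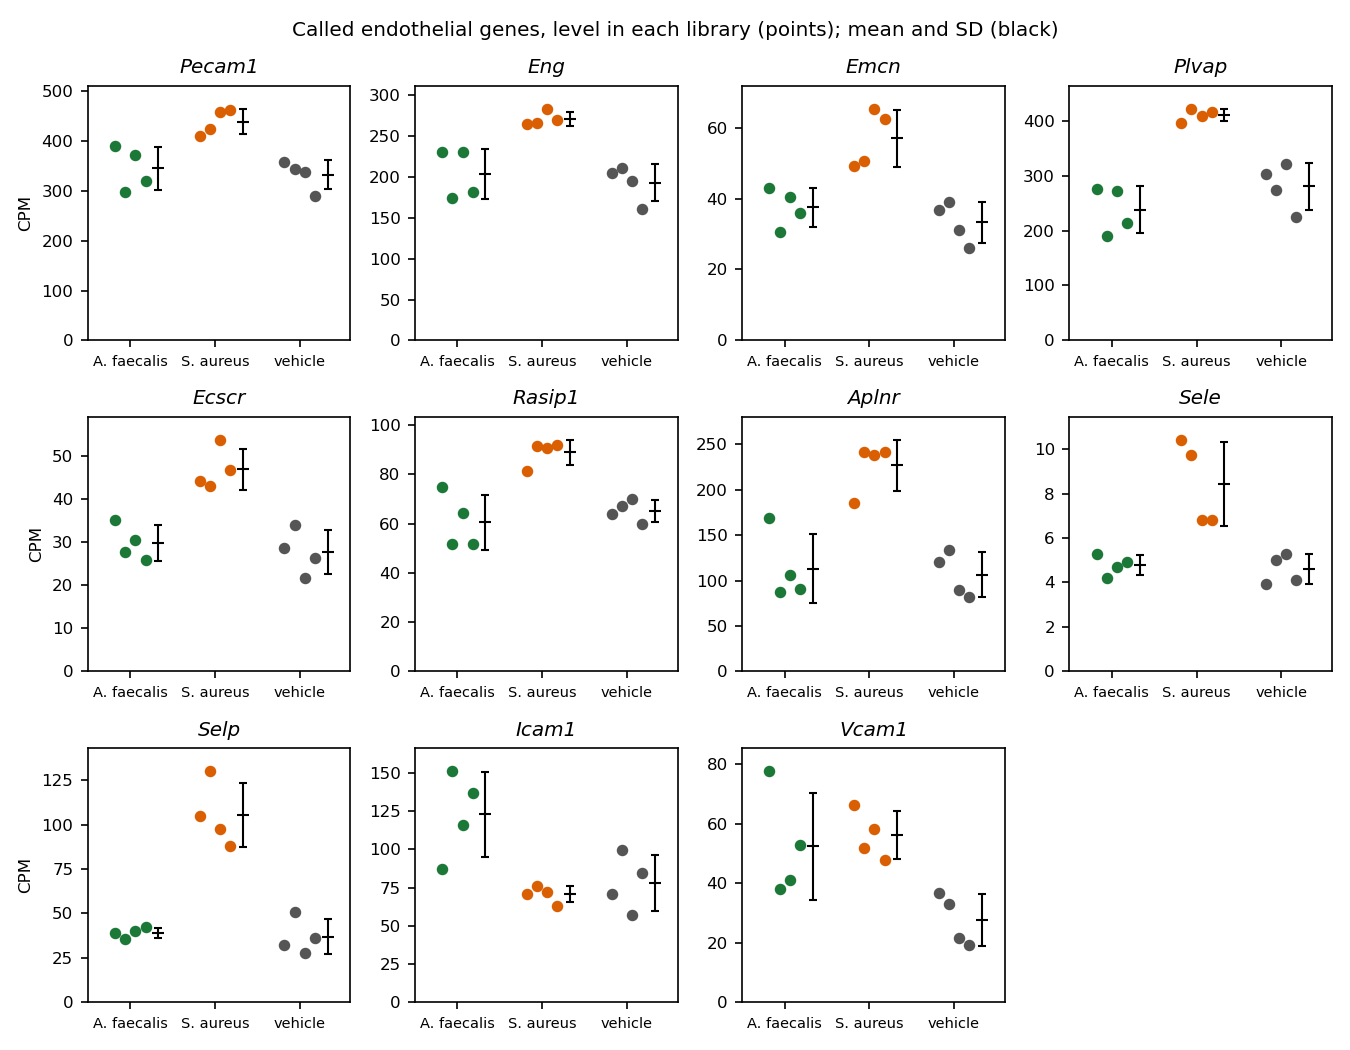
Level in CPM (linear axis from 0) of the 11 genes called in any comparison, with 1 point per library for A. faecalis, S. aureus and vehicle, and the group mean and SD in black (n = 4). For Selp the S. aureus points lie at 87.9 to 130 CPM and all other points at 27.9 to 51.0 CPM, and for Icam1 the A. faecalis points lie at 87.1 to 151 CPM.

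The remaining 11 identity genes did not pass the test with S. aureus. Cdh5, VE-cadherin of the adherens junction, stood just above the threshold. It averaged 570 ± 55.9 CPM in S. aureus wounds and 380 ± 79.6 CPM in vehicle wounds, with separate groups and a log2 fold change of 0.58 (SE 0.16, edgeR adjusted p = 0.0502). Esam, an adhesion molecule of tight junctions, and Mmrn2, a matrix protein of vessels, also had separate groups, at log2 fold changes of 0.34 and 0.37 (edgeR adjusted p = 0.219 and 0.16). Tie1, an orphan receptor kinase, Robo4, a receptor that steadies vessels, Icam2 and Nos3, endothelial nitric oxide synthase, had log2 fold changes of 0.31, 0.20, 0.28 and 0.31 with overlapping groups. Ramp2, a subunit of the adrenomedullin receptor, and Egfl7, a secreted endothelial protein, were at 0.11 and 0.03.

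Cldn5 and Gpihbp1 had negative log2 fold changes. Cldn5, the tight junction protein claudin-5, was at 27.0, 24.5, 23.2 and 26.6 CPM with S. aureus, against 34.6, 27.5, 59.3 and 26.0 CPM with vehicle (-0.54, SE 0.23, edgeR adjusted p = 0.151). Gpihbp1, which carries lipoprotein lipase to the lumen of capillaries in fat and muscle, was at 43.4, 41.6, 48.2 and 48.5 CPM, against 46.3, 46.3, 82.0 and 34.2 CPM with vehicle (-0.20, SE 0.22, edgeR adjusted p = 0.599). Vehicle replicate 3 held the highest value of both genes; it is the library with the highest adipocyte marker sum, and the part of fat tissue in these values was not tested.

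Among tip cell and angiogenic genes, the apelin receptor was called. Aplnr, which marks venous and sprouting endothelium, was at 185, 242, 238 and 242 CPM with S. aureus, against 120, 134, 89.2 and 81.9 CPM with vehicle. The groups were separate, with a log2 fold change of 1.09 (SE 0.22, edgeR adjusted p = 0.0198); without S. aureus replicates 2, 3 or 4 the adjusted p was 0.0505, 0.0619 and 0.0565. Its ligand gene Apln, a tip cell product, averaged 80.7 ± 27.6 CPM in S. aureus wounds and 59.2 ± 17.8 CPM in vehicle wounds, with overlapping groups (0.45, SE 0.26, edgeR adjusted p = 0.302). Esm1, endocan, a secreted proteoglycan of tip cells, was at 8.23, 9.52, 15.7 and 16.6 CPM, against 6.56, 9.06, 3.64 and 3.90 CPM with vehicle (1.11, SE 0.33, edgeR adjusted p = 0.0612). S. aureus replicates 3 and 4 were the high ones, and without vehicle replicate 2 the adjusted p was 0.0328, without S. aureus replicate 1 it was 0.0457. Dll4, the Notch ligand of tip cells, and Notch4, an endothelial Notch receptor, had separate groups and log2 fold changes of 0.57 and 0.41 (edgeR adjusted p = 0.082 and 0.0706). The receptor was called and its ligand was not, a difference that was not tested, and all 5 genes of this role had positive values, where 45.3% of all genes did.

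None of the 5 transcription factors passed the test with S. aureus, at unadjusted p under 0.05 in 2 of them (27% of all genes). Erg, an ETS factor that maintains endothelial identity, averaged 20.0 ± 3.19 CPM in S. aureus wounds and 14.6 ± 2.47 CPM in vehicle wounds (log2 fold change 0.45, SE 0.17, edgeR adjusted p = 0.11), with separate groups. Sox18, Sox7 and Sox17, the SoxF factors of vessel development, had log2 fold changes of 0.46, 0.19 and 0.19, with overlapping groups (edgeR adjusted p = 0.0955, 0.561 and 0.537). Sox18 had an adjusted p of 0.0366 without vehicle replicate 3. Klf2, a factor induced by laminar flow that leukocytes also express, was at 74.1, 68.7, 123 and 134 CPM with S. aureus, against 69.4, 109, 57.7 and 212 CPM with vehicle (-0.16, SE 0.37, edgeR adjusted p = 0.814). DESeq2 called Sox18 alone among the 5 with S. aureus, and 2876 of all genes, against 1246 of all genes by edgeR.

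Both lymphatic genes had negative log2 fold changes with S. aureus. Prox1, the transcription factor that specifies lymphatic endothelium, was at 5.12, 5.18, 4.62 and 3.21 CPM with S. aureus, against 5.95, 6.84, 12.7 and 7.43 CPM with vehicle. Mmrn1, multimerin-1 of lymphatic endothelium and platelets, was at 14.6, 6.86, 11.6 and 11.8 CPM, against 17.6, 14.9, 35 and 19.0 CPM with vehicle. All S. aureus libraries were below all vehicle libraries for both genes, the 2 members that were separate in this direction. Neither passed edgeR, with log2 fold changes of -0.86 (SE 0.28, adjusted p = 0.0773) and -0.95 (SE 0.32, adjusted p = 0.084). DESeq2 called both (adjusted p = 0.0267 and 0.0301), but it called 2876 of all genes in this comparison, against 1246 by edgeR. Vehicle replicate 3 was the highest library for both, and without it the log2 fold changes were -0.56 and -0.60. Of 6 lymphatic markers, Prox1 and Mmrn1 among them, edgeR called none with S. aureus. At an unadjusted p under 0.05 there were 1 higher and 3 lower, against 12.3% and 14.8% of all genes. Lyve1 and Pdpn, which macrophages and activated keratinocytes or fibroblasts also make, had log2 fold changes of 0.42 and 0.52, and Ccl21a and Reln had -0.91 and -0.41. The 6 summed to 298 to 332 CPM with S. aureus and 240 to 323 CPM with vehicle, none at 0. Most of the S. aureus sum came from Pdpn and Lyve1, at means of 163 and 95.5 CPM, against 114 and 71.3 CPM with vehicle.

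**Figure D3:**
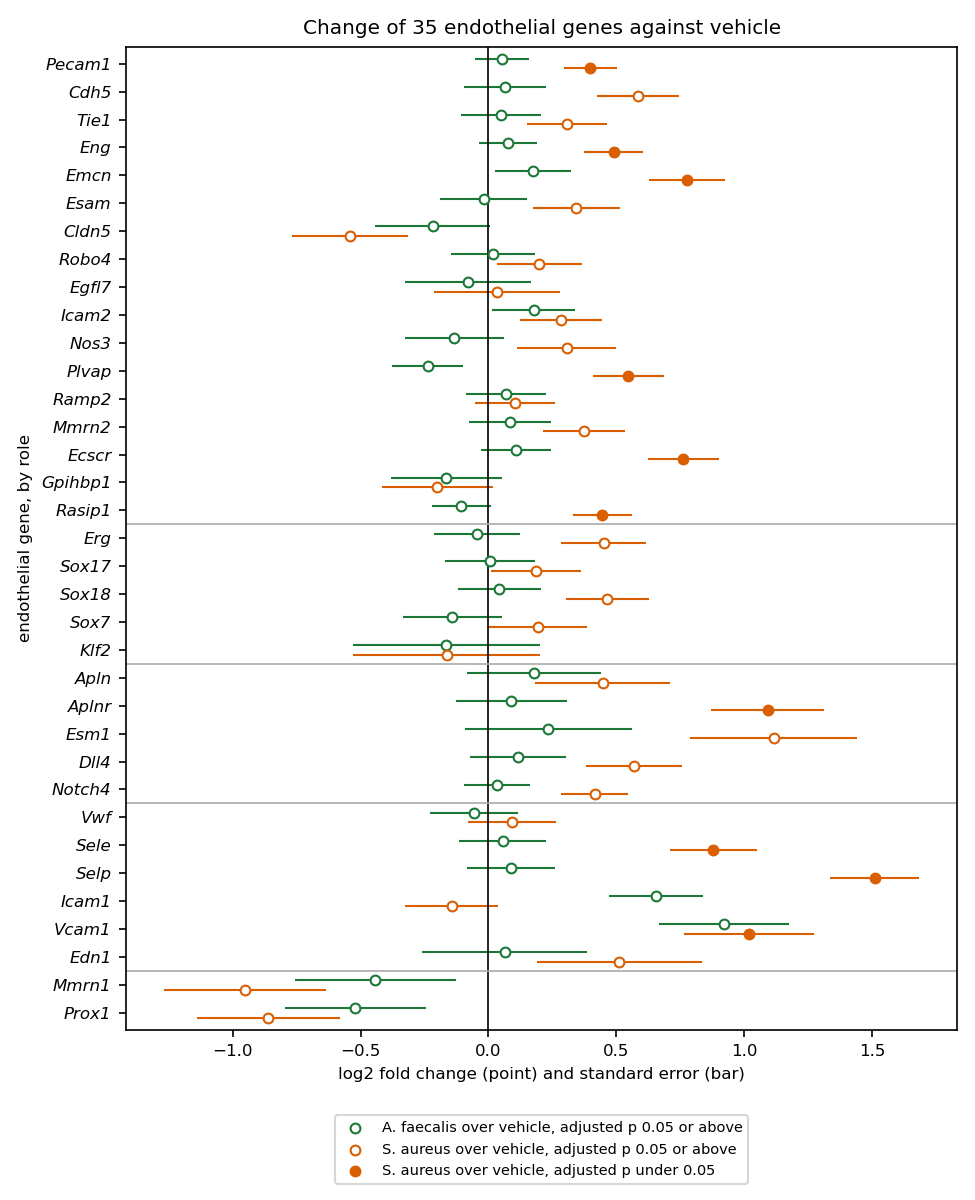
Log2 fold change (points) with its standard error (bars) of each of the 35 genes for A. faecalis over vehicle (green) and S. aureus over vehicle (orange); filled points passed an adjusted p of 0.05 and grey lines part the roles. The filled points are 10 S. aureus points between 0.40 for Pecam1 and 1.51 for Selp, and no A. faecalis point is filled.

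A. faecalis changed none of the 35 genes at the threshold. EdgeR called 0 of 35, where 0.011% of all genes were called, 0.00549% higher and 0.00549% lower, and DESeq2 and limma-voom also called 0. At an unadjusted p under 0.05 there were 2 members, Vcam1 and Icam1, both higher, against 7.68% of all genes, 3.18% higher and 4.5% lower. The median log2 fold change was 0.05, against -0.03 over all genes, and 1 member had groups that did not overlap, against 4.05% of all genes, 1.49% higher and 2.56% lower. Of the 35, 22 had a log2 fold change above 0, as did 43.8% of all genes. Identity genes lay between -0.24 for Plvap and 0.18 for Icam2. Pecam1 was at 0.05 (SE 0.10), Cdh5 at 0.07 (SE 0.16) and Selp at 0.09 (SE 0.17).

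The member separate from vehicle was Vcam1. It was at 77.6, 37.9, 41.1 and 52.9 CPM with A. faecalis, against 36.8, 33.1, 21.5 and 19.1 CPM with vehicle, which is 0.92 as a log2 fold change (SE 0.25, edgeR adjusted p = 0.458). A. faecalis replicate 1 was the highest and replicate 2 lay only just above vehicle replicate 1. Icam1 was at 87.1, 151, 116 and 137 CPM with A. faecalis, against 71, 99.3, 57.2 and 84.3 CPM with vehicle (0.66, SE 0.18, edgeR adjusted p = 0.467). The groups overlapped through A. faecalis replicate 1 and vehicle replicate 2. Icam2, the constitutive relative of Icam1, was at 18.8, 14.2, 17.1 and 14.5 CPM, against 15.6, 15.3, 16.8 and 9.34 CPM with vehicle (0.18, SE 0.16, edgeR adjusted p = 0.79). It shows no separation of the groups.

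For the lymphatic genes, Prox1 was at 4.19, 4.39, 6.30 and 8.09 CPM with A. faecalis, against 5.95, 6.84, 12.7 and 7.43 CPM with vehicle (log2 fold change -0.52, SE 0.28, edgeR adjusted p = 0.679). Mmrn1 was at 11.8, 12.6, 15.3 and 24.2 CPM, against 17.6, 14.9, 35 and 19.0 CPM with vehicle (-0.44, SE 0.31, edgeR adjusted p = 0.734). Both overlapped, with A. faecalis replicate 4 high in its group and vehicle replicate 3 high in its own. Cldn5 was at 37.2, 25.6, 31.7 and 32.3 CPM with A. faecalis, against 34.6, 27.5, 59.3 and 26.0 CPM with vehicle, with overlapping groups (-0.22, SE 0.23, edgeR adjusted p = 0.816). The tip cell genes had log2 fold changes of 0.03 to 0.23 and the transcription factors -0.16 to 0.04.

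The direct comparison of the bacteria used the same S. aureus libraries as above, so its values repeat part of that contrast. With A. faecalis, 8 members were lower than with S. aureus and 1 was higher, while 12.7% of all genes were called, 7.62% lower and 5.06% higher. The groups did not overlap in 11 members that were lower and 1 that was higher, against 23.3% of all genes, 11.8% lower and 11.5% higher. At an unadjusted p under 0.05 there were 16 lower and 1 higher, against 28.2% of all genes, 15.1% lower and 13% higher, and 5 of the 35 had a log2 fold change above 0, as did 52.7% of all genes. Without vehicle replicate 3 the fit called 12 members, and 3457 of all genes, against 2310 of all genes with every library. Selp was at 38.9, 35.6, 40.0 and 42.4 CPM with A. faecalis, against 105, 130, 97.5 and 87.9 CPM with S. aureus, which is -1.42 as a log2 fold change (SE 0.17, edgeR adjusted p = 0.00104). Sele was at 5.26, 4.21, 4.70 and 4.93 CPM with A. faecalis, against 10.4, 9.73, 6.83 and 6.80 CPM with S. aureus (-0.82, SE 0.17, edgeR adjusted p = 0.00948). For both selectins every A. faecalis library lay below every S. aureus library. Plvap was at 276, 190, 272 and 214 CPM with A. faecalis, against 395, 421, 408 and 415 CPM with S. aureus (-0.78, SE 0.14, edgeR adjusted p = 0.00476). This was the smallest adjusted p of an identity gene between the bacteria, with the groups well apart.

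Ecscr was at 35.3, 27.7, 30.6 and 25.9 CPM with A. faecalis, against 44.4, 43.1, 53.8 and 46.9 CPM with S. aureus (log2 fold change -0.65, SE 0.14, edgeR adjusted p = 0.0105). Rasip1 was at 74.8, 51.6, 64.3 and 51.8 CPM, against 81.4, 91.5, 90.9 and 91.8 CPM with S. aureus (-0.55, SE 0.12, edgeR adjusted p = 0.0101). Both were lower in each A. faecalis library than in any S. aureus library. Emcn was at 43.1, 30.6, 40.3 and 35.9 CPM, against 49.3, 50.7, 65.2 and 62.5 CPM with S. aureus (-0.60, SE 0.15, edgeR adjusted p = 0.0216). Eng was at 230, 174, 230 and 181 CPM, against 265, 266, 283 and 270 CPM with S. aureus (-0.41, SE 0.11, edgeR adjusted p = 0.0357). Their groups were separate too, but the Emcn call was lost without A. faecalis 2 or 4 or S. aureus 3 or 4 (adjusted p up to 0.0733), and the Eng call without those or S. aureus 1 or 2 (up to 0.104). Aplnr was at 169, 87.0, 106 and 91.2 CPM, against 185, 242, 238 and 242 CPM with S. aureus (-1.002, SE 0.22, edgeR adjusted p = 0.0134). A. faecalis replicate 1 came near S. aureus replicate 1, but the groups did not overlap. Pecam1, at 391, 299, 373 and 320 CPM with A. faecalis, and Cdh5, at 452, 342, 444 and 353 CPM, also lay below every S. aureus library, with adjusted p of 0.0503 and 0.0547 by edgeR.

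Icam1 was the member that was higher with A. faecalis. It stood at 87.1, 151, 116 and 137 CPM, against 71, 75.8, 72.2 and 63.2 CPM with S. aureus, which is 0.80 as a log2 fold change (SE 0.18, edgeR adjusted p = 0.016). The groups were separate, and the call held in all 12 fits with a library left out (adjusted p up to 0.0482). Vcam1, in contrast, averaged 52.4 ± 18 CPM in A. faecalis wounds and 56.0 ± 8.05 CPM in S. aureus wounds (-0.10, SE 0.25, edgeR adjusted p = 0.835), a difference within the replicate spread. Since Icam1 is not particular to endothelium, the levels of other cells are given: 6 monocyte and macrophage markers summed to 4340 to 6660 CPM with A. faecalis and 3330 to 4070 CPM with S. aureus, 2 of them called higher with A. faecalis. The 7 neutrophil markers summed to 1780 to 4210 CPM with A. faecalis and 9360 to 14900 CPM with S. aureus, with 5 of 7 called lower. No marker of either list was at 0, and their part in the Icam1 difference was not tested.

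Activation genes were also expressed relative to an identity core, the mean log2(CPM + 0.5) of Pecam1, Cdh5, Tie1, Emcn, Esam, Cldn5, Robo4, Egfl7, Ecscr and Erg in the same library. This core is no measure of cell number, and 3 of its genes, Pecam1, Emcn and Ecscr, rose with S. aureus by unequal log2 fold changes of 0.40, 0.78 and 0.76. The 10 core genes summed to 909 to 1290 CPM with A. faecalis, 1320 to 1510 CPM with S. aureus and 826 to 1170 CPM with vehicle. On this log2 scale Selp was at -0.60 ± 0.26 relative to the core with A. faecalis, 0.47 ± 0.27 with S. aureus and -0.70 ± 0.45 with vehicle (mean ± SD, n = 4 each). The S. aureus libraries remained above all others, from 0.18 to 0.79, against -0.28 at most with vehicle. Sele relative to the core was at -3.51 ± 0.19, -3.10 ± 0.36 and -3.56 ± 0.23 in the same order, and its S. aureus and vehicle ranges overlapped. Vcam1 was at -0.24 ± 0.34, -0.43 ± 0.25 and -1.13 ± 0.34, with every A. faecalis and S. aureus library above every vehicle library. Icam1 was at 1.01 ± 0.61, -0.09 ± 0.14 and 0.37 ± 0.47, so the A. faecalis libraries were above all S. aureus libraries. Cldn5 and Emcn belong to the core they are set against, so a low value of one lifts the others. Relative to it Cldn5 was lower with S. aureus, at -1.55 ± 0.14, against -0.91 ± 0.13 with A. faecalis and -0.75 ± 0.45 with vehicle, while Emcn was higher, at -0.41 ± 0.16, against -0.67 ± 0.08 with A. faecalis and -0.83 ± 0.15 with vehicle. With a core of Pecam1 and Cdh5 alone, Cldn5 was at -4.28 ± 0.18 with S. aureus, against -3.53 ± 0.14 with A. faecalis and -3.32 ± 0.49 with vehicle, and its S. aureus libraries were again below all others. With that core the S. aureus libraries of Selp were again above all others, but the Emcn ranges of S. aureus and A. faecalis overlapped. So did the Vcam1 ranges of S. aureus and vehicle, with S. aureus replicate 4 at -3.47 and vehicle replicate 1 at -3.41. These are descriptions of log2 differences, with no test.

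**Figure D4:**
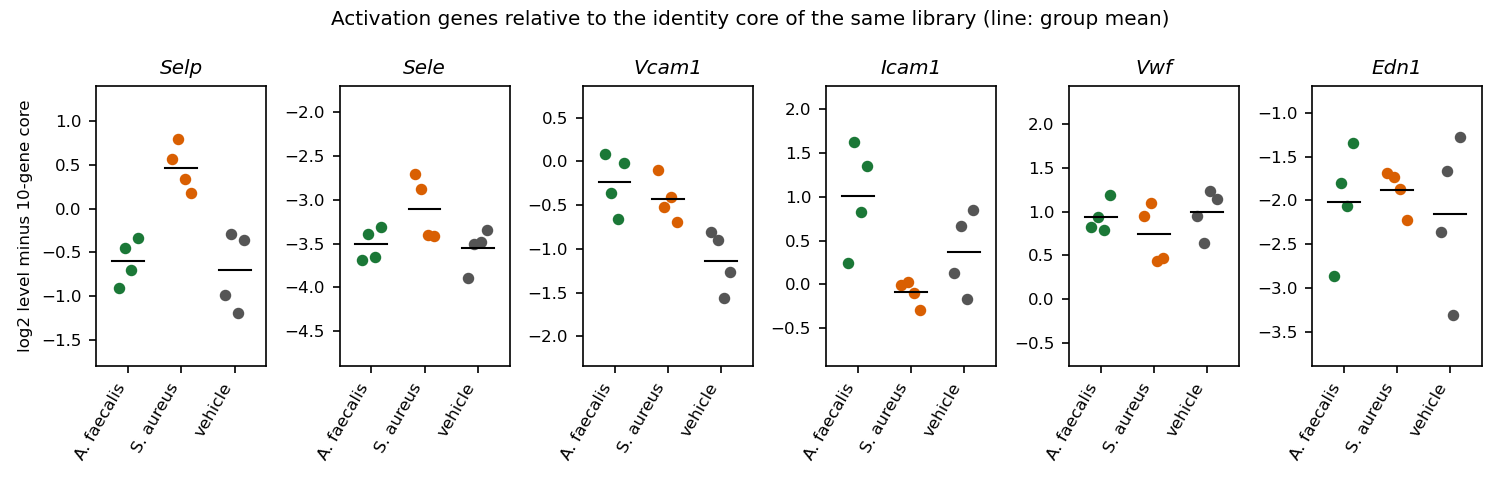
Level of 6 adhesion and activation genes relative to the 10-gene identity core of the same library (log2 scale, difference), 1 point per library and a line at each group mean. Selp is at 0.18 to 0.79 in S. aureus libraries and at -0.28 or lower in all others, and Vcam1 is lowest in the vehicle libraries.

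Within groups, the same libraries were often highest or lowest across the identity genes. Such ranks were not counted over all genes, so this is not shown to be particular to these genes. Of the 17 identity genes, A. faecalis replicate 1 had the highest level of its group in 15 and A. faecalis replicate 2 the lowest in 15. In the vehicle group replicate 4 was lowest in 16 of the 17 and replicate 3 highest in 9. In the S. aureus group replicate 1 was lowest in 9 of the 17, and each library was highest in 2 to 6. Marker sums of other cells did not follow these positions alike in the 3 groups. A. faecalis replicates 1 and 2 had 1780 and 4200 CPM of the 7 neutrophil markers. Their sums of 8 mural cell markers were 935 and 618 CPM. Vehicle replicate 4 had 8810 CPM of the neutrophil markers, the highest of its group, and 643 CPM of the mural markers, the lowest. S. aureus replicate 1 went the other way. It had 9360 CPM of the neutrophil markers, the lowest of its group, and 916 CPM of the mural markers, the highest. A. faecalis replicate 4 had 4210 CPM of the neutrophil markers and was lowest in 2 of the 17 identity genes. Its identity genes summed to 1610 CPM, against 2110, 1480 and 1960 CPM in A. faecalis replicates 1, 2 and 3. Vehicle replicate 3 had 718 CPM of the neutrophil markers, the lowest of its group, and 1100 CPM of the mural markers, the highest. The part of these cells was not tested. The coefficient of variation of the 17 identity genes had a median of 15% with A. faecalis, 5.73% with S. aureus and 18.3% with vehicle, while over all genes tested the medians were 13.7%, 12.8% and 18.6%. The tightest was Plvap with S. aureus, at 2.74%, and the widest was Klf2 with vehicle, at 62.5%.

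Further endothelial genes were tested beside the members. Of 34 such genes, 4 rose and 1 fell with S. aureus (6.84% of all genes were called), with a median log2 fold change of 0.18. Ets1, an ETS factor of endothelium and lymphocytes, was at 241 to 305 CPM with S. aureus and 139 to 169 CPM with vehicle (0.83, SE 0.09, edgeR adjusted p = 0.00332). Bmx, a kinase of arterial endothelium and myeloid cells, averaged 15.9 ± 1.45 CPM and 6.38 ± 2.14 CPM (1.32, SE 0.20, edgeR adjusted p = 0.0084). Thbd, thrombomodulin, and Entpd1, the ectonucleotidase CD39, had log2 fold changes of 0.995 and 1.47 (edgeR adjusted p = 0.0149 and 0.0247). Lmo2, a cofactor of endothelial and blood cell development, fell (-0.58, edgeR adjusted p = 0.0159). Leukocytes also make these genes; their marker sums are given above, and their part was not tested.

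With A. faecalis against vehicle 0 of the 34 were called by edgeR, 3 having an unadjusted p under 0.05, against 7.68% of all genes. Between the bacteria 6 were lower and 1 higher with A. faecalis, against 7.62% and 5.06% of all genes. The lower ones included Bmx, at 4.49 ± 0.26 CPM in A. faecalis wounds and 15.9 ± 1.45 CPM in S. aureus wounds (log2 fold change -1.82, edgeR adjusted p = 0.000759), Ets1 (-0.77, edgeR adjusted p = 0.00104) and Lyve1 (-1.08, edgeR adjusted p = 0.00378). The higher one was Lmo2 (0.45, edgeR adjusted p = 0.0216).

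Leukocyte partners of the adhesion genes were also measured. With A. faecalis against vehicle edgeR called none of 11 counter-receptor genes, 1 having an unadjusted p under 0.05, against 7.68% of all genes. Itgb7, an integrin chain of lymphocytes and mast cells, was at 12.2, 18, 15.5 and 15.9 CPM with A. faecalis, against 22.2, 24, 24.7 and 20.6 CPM with S. aureus, and was lower with A. faecalis (log2 fold change -0.57, SE 0.16, edgeR adjusted p = 0.0363). Of 8 mural cell markers, Pdgfrb, the receptor kinase of pericytes and fibroblasts, rose with S. aureus to 283 ± 11.2 CPM, against 192 ± 20.0 CPM with vehicle (0.56, SE 0.10, edgeR adjusted p = 0.0114), and was lower with A. faecalis than with S. aureus (-0.62, edgeR adjusted p = 0.003). The median log2 fold change of the 8 with S. aureus was 0.00. With A. faecalis against vehicle edgeR called none of the 8, 1 having an unadjusted p under 0.05, against 7.68% of all genes.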

How the data were processed

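The authors deposited a table of estimated counts per gene for 12 libraries, made with kallisto per the submitters' processing notes; these notes name kallisto 0.48.0, FastQC 0.12.1, R 4.1.3, DESeq2 1.34.0 and build GRCm39. Neither the step from transcripts to genes nor the use of strand in counting is stated in them; Selp, Icam1, Vcam1, Ecscr, Eng, Rasip1 and other members overlap genes on the opposite strand. Per the labels' protocols the library kit was stranded. A row with no gene name (0.00909% to 0.0151% of each library) was left out.

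Estimated counts were rounded to whole numbers. Genes passing edgeR's filterByExpr (minimum count 10, minimum total 15) were fitted together over the 3 groups with edgeR 4.0.16 in R 4.3.3, with TMM scaling and a robust quasi-likelihood test, and p-values were adjusted by Benjamini-Hochberg over 18218 genes at 0.05. A standard error is the size of the log2 fold change over the square root of F. CPM uses the TMM-scaled library size; levels relative to the core added 0.5 CPM before the log2. The procedure was tested on simulated data. Alternatives were limma 3.58.1 (voom), DESeq2 1.42.0, other scalings, filters and thresholds, fits of only the 2 groups compared, a replicate block and each library left out. The members and lists were chosen with earlier results of these data known. By the naming rule, values in every library are given for members called in any comparison or among the 8 smallest adjusted p of one, which adds Prox1, Mmrn1, Icam2 and Cldn5; values of other members shown by library were chosen after they were seen. Of the other lists, up to 5 called genes are named; 1 result among the leukocyte genes is not reported here.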

Additional observations from a re-analysis of the deposited data

Results flagged for a closer look

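In 2 of the 105 combinations of a member and a group, 1 library stood far from the other 3 of its group; chance gives about 1 in 20 such groups. Aplnr was at 185.0 CPM in S. aureus replicate 1, against 238 to 242 CPM in the other S. aureus libraries. Rasip1 was at 81.4 CPM in the same library, against 90.9 to 91.8 CPM in the others.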

How the results depend on the processing

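With A. faecalis against vehicle, 0 members were called under each alternative run. With S. aureus against vehicle the count of 10 became 17 with DESeq2's Wald test (15 higher, 2 lower), 17 at a threshold of 0.1 and 6 when only the 2 groups compared were fitted; leaving out 1 library gave 3 to 11. Between the bacteria the count of 9 became 14 with DESeq2's Wald test, 14 at a threshold of 0.1, and 7 to 13 with 1 library left out. Over all genes, the counts of 2, 1246 and 2310 became 120, 2876 and 3474 with DESeq2; the S. aureus against vehicle count became 350 with only its 2 groups and 2859 at 0.1, and that between the bacteria 3650 at 0.1. With 1 library left out they were 2 to 10, 260 to 1750 and 1313 to 3457. The cause was not tested. Other scalings, filters and limma-voom gave 8 to 12 and 8 to 10. Over the fold changes of single members none changed direction past a threshold; the Klf2 value between the bacteria, near 0, changed sign with upper-quartile scaling. Pecam1 and Rasip1 with S. aureus against vehicle, and Eng between the bacteria, were not called with upper-quartile scaling or with no filter on low counts. With a replicate block the counts were 0, 8 and 9. Same-numbered libraries correlated at -0.21 to 0.182 in their deviations, and not every library correlated best with its own number, so the numbers were not taken as pairs. With 4 libraries a group, calls near the threshold depend on single libraries.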
